A study of Mus musculus with 8 samples.

Results

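Regulatory T cells (Tregs) were examined among immune cells sorted from the mouse brain by the surface antigen CD45.2 and profiled by droplet single-cell RNA sequencing. They were taken as barcodes in which at least 2 of the T cell receptor complex genes Cd3e, Cd3d and Cd3g and at least 1 unique molecular identifier (UMI, a counted RNA molecule) of Foxp3 were detected, with no UMI of Cd8b1 (cytotoxic T cells) or Cd79a (B cells). The members were thus chosen by their measured Foxp3, Cd3, Cd8b1 and Cd79a UMIs. The gate gave 309 Tregs, 0.667% of the 46314 barcodes that passed the filters on quality and sample tag, and 4.62% of the 6687 T cells with the same receptor, Cd8b1 and Cd79a conditions. Of all barcodes, 549 held a Foxp3 UMI. Of these, 376 also had 2 or more Cd3 genes, and 38 were then left out for Cd8b1 and 31 for Cd79a, 2 of them for both.

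The study compared wild-type (WT) C57BL/6J mice with App NL-G-F mice, which carry a humanised amyloid sequence with familial Alzheimer's disease mutations knocked into the mouse App gene, so that no transgene promoter drives it. Animals of each genotype were 16 weeks old according to the labels and were untreated (control), given 2% dextran sulfate sodium (DSS) in the drinking water for 1 week (acute colitis), given 3 cycles of 2% DSS alternating with water, each for 5 days (chronic colitis), or sensitised and fed with ovalbumin (food allergy). There was 1 library for each of the 8 combinations, and inside each library up to 4 hashtag antibodies separated samples that the labels do not tie to animals. The control groups had received neither DSS nor ovalbumin, and all cells had passed the same sort for CD45.2.

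Tregs are CD4 T cells that depend on the transcription factor Foxp3 and hold other immune cells in check through CTLA-4, consumption of interleukin-2 by the high-affinity receptor CD25 (Il2ra) and inhibitory cytokines. In barrier and other nonlymphoid tissues a subset carries KLRG1, the interleukin-33 receptor ST2 (Il1rl1) and GATA3 and makes amphiregulin (Areg), a growth factor known for its part in tissue repair. Such cells have been described in the injured brain, where amphiregulin acts on glia.

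The Tregs came from every library. WT control held 40, WT acute 47, WT chronic 25 and WT allergy 18, while App control held 51, App acute 31, App chronic 43 and App allergy 54. They were spread over all 30 hashtag groups, with 1 to 27 cells in each. Their median depth was 2592 UMIs, close to the 2712.5 of the 1340 conventional CD4 T cells they were compared with. That class passed the same gate without Foxp3 and was required to hold a Cd4 UMI and none of Cd8a or Trdc. Of the Tregs themselves, 122 held a Cd4 UMI, 4 a Cd8a UMI and 3 a Trdc UMI. Of all barcode sequences, 1278 occurred in 2 or more libraries, among them 12 Treg barcodes, and 1 barcode was a Treg in 2 libraries.

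The label was checked against its markers. The summed level of Il2ra, Ctla4, Tnfrsf4 (OX40) and Izumo1r (folate receptor 4) lay between 1154 and 2149 CPM (UMIs of a gene, summed over the class in a library and scaled to the same total in every sum) in the Tregs of the 8 libraries and between 306 and 646 in conventional CD4 T cells. Foxp3 itself was part of the rule and is described only. It was found in 0.912% of 3947 CD8 T cells (95% exact binomial interval 0.64 to 1.26, median 3085 UMIs), 0.282% of 12064 B cells (0.195 to 0.394, median 2525 UMIs) and 1 of 282 ILC2s (type 2 innate lymphoid cells, taken as non-T, non-B cells with Il5 or Il13). These shares stand beside the 4.62% of cells of the T cell gate that held a Foxp3 UMI. How many of the Tregs held a stray Foxp3 UMI was not tested. Markers of red blood cells and of neurons and glia were at 0 in the Tregs. Summed B cell markers were low but higher in Tregs than in conventional cells in 8 of 8 libraries, between 10.6 and 64.5 against 0 to 11.5 CPM, with Cd79a at 0 by the rule. Neutrophil markers reached 36134 CPM in the Tregs of 1 library and 35322 in conventional cells, and the part of carried-over RNA in any single gene was not tested.

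The Foxp3 threshold split the Tregs into 164 cells with 1 UMI and 145 with 2 or more. Ikzf2, which encodes the Treg transcription factor Helios, was detected in 57.9% of cells with 1 Foxp3 UMI, in 67.6% of those with 2 or more and in 15.8% of conventional cells. Ctla4 was detected in 44.5%, 64.1% and 22.1% of the same classes. Cd40lg, the helper ligand CD154, was detected in 9.8%, 9.7% and 39.9%. For Ikzf2 and Cd40lg the cells with 1 UMI lay nearer to those with 2 or more, but for Izumo1r (39.0%, 60.7% and 25.9%) and Areg (17.1%, 31.7% and 5.37%) they lay nearer to conventional cells. These shares were not adjusted for depth, and the median depths of the 3 classes were 2366.5, 2877 and 2712.5 UMIs. The split also differed by genotype, as 87 of 130 WT and 58 of 179 App Tregs held 2 or more.

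To describe what set Tregs apart from conventional CD4 T cells in the same brains, UMIs were summed over each class in each library and compared with edgeR's quasi-likelihood test, with the library as a block. Of 3710 genes tested, 95 were higher and 66 lower in Tregs at an adjusted p below 0.05. These are 2.56% and 1.78% of the genes tested, or 4.34% together. In 27 genes, 0.728%, the 8 Treg sums and the 8 conventional sums did not overlap. Genes used by the gates were left out of the test.

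Most tested genes of Treg identity rose. Of 14 genes in a list of Treg identity, 11 were tested, 9 rose and none fell, with a median log2 fold change of 1.32 against -0.01 over all genes tested. This list and those below were chosen with earlier results of these data known, so their counts and medians are descriptions. Ikzf2 stood at 279, 457, 345 and 329 CPM in the Tregs of WT control, acute, chronic and allergy, and at 393, 267, 471 and 382 in those of App control, acute, chronic and allergy. In the conventional cells of the same libraries it ranged from 20.8 to 103, so the classes did not overlap. The fold change was 5.46 (log2 2.45 ± 0.18 SE, adjusted p = 3.09e-06, higher in 8 of 8 libraries).

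Ctla4, the inhibitory receptor that removes costimulatory ligands from antigen-presenting cells, stood at 680.4, 533, 286 and 578 CPM in the 4 WT libraries in the same order and at 270.5, 310.1, 364 and 276 in the 4 App libraries. The highest conventional sum was 143, below every Treg sum (3.91-fold, log2 1.97 ± 0.20 SE, adjusted p = 3.22e-05). Tnfrsf4, a costimulatory receptor of the tumour necrosis factor (TNF) receptor family, reached 388 to 1015 CPM in Tregs and 88.0 to 276 in conventional cells, again without overlap (3.43-fold, log2 1.78 ± 0.24 SE, adjusted p = 0.000323). Il2ra averaged 139 ± 41.4 CPM (SD, n = 8 libraries) in Tregs and 44.8 ± 23.4 in conventional cells (log2 fold change 1.72 ± 0.20 SE, adjusted p = 9.27e-05). Here the lowest Treg sum, 86.1 in App acute, lay just under the highest conventional sum, 91.8 in WT chronic.

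Izumo1r, Tnfrsf18 (GITR), Capg (an actin-capping protein), Nrp1 (neuropilin-1) and Tnfrsf9 (4-1BB) also rose. Tnfrsf9 rose most among them, 5.90-fold, from 20.9 ± 13.2 to 154 ± 116 CPM (SD, n = 8), and was the most uneven, with 315 in WT control and 355 in WT chronic but 32.2 in App control. Nrp1 rose by a log2 fold change of 0.74 with an adjusted p of 0.0442, which did not hold in 12 of 17 alternative analyses. The call of Capg was lost against all Foxp3-negative cells of the gate (log2 fold change 0.29, edgeR adjusted p = 0.154). Il2rb, the shared beta chain of the receptors for interleukin-2 and interleukin-15, and Socs2, a cytokine signalling inhibitor, did not pass the test, with log2 fold changes of -0.18 ± 0.15 and -0.43 ± 0.24 SE. Of the 3 members too low to test, Ikzf4 (Eos) stood at 44.9 ± 15.3 CPM in Tregs and 7.36 ± 6.86 in conventional cells, Lrrc32 (GARP) had 12 UMIs and Gpr83 had 3.

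**Figure D1:**
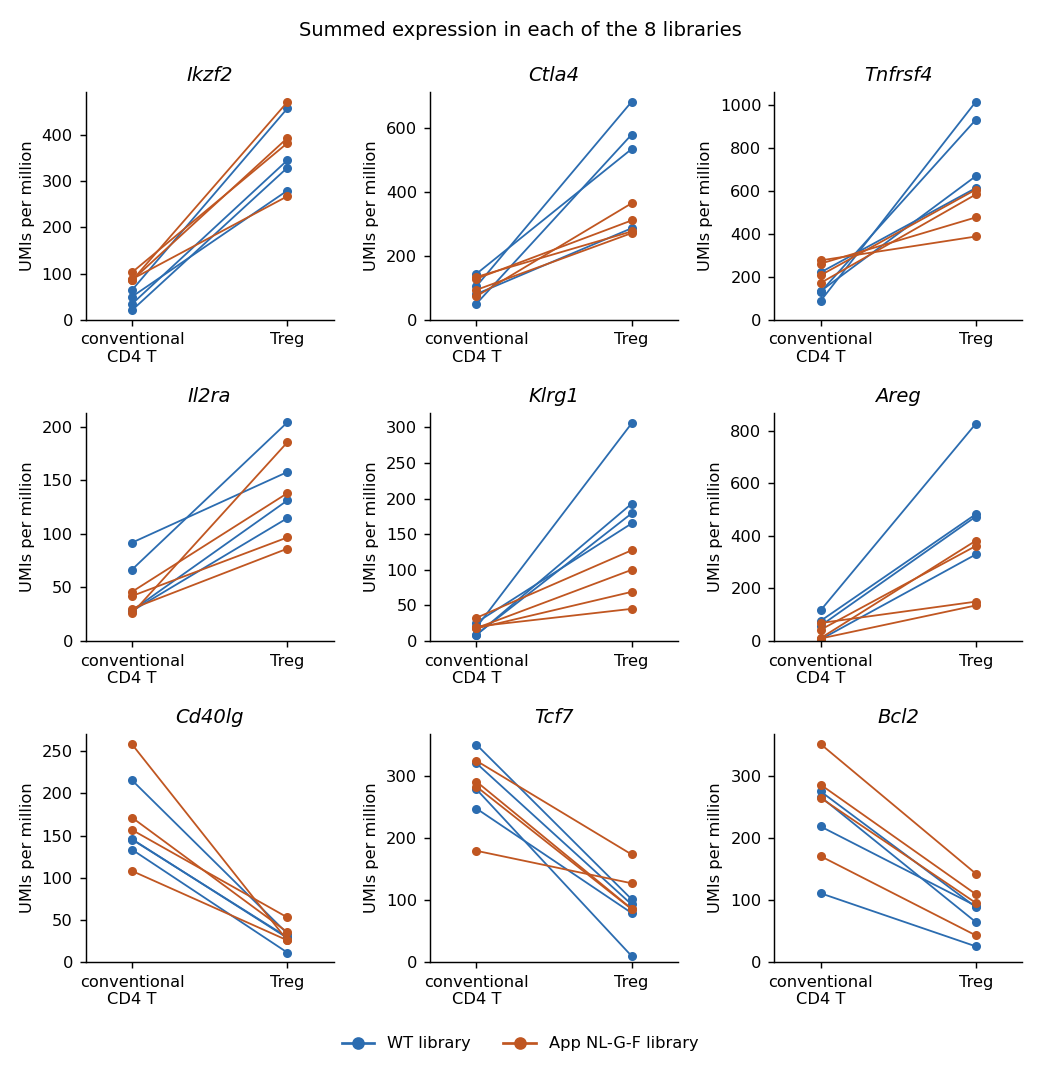
CPM (vertical axis of each panel, from 0) of 9 genes summed over conventional CD4 T cells and over Tregs in each of the 8 libraries. Each line joins the 2 classes of 1 library, WT in blue and App NL-G-F in orange. The 6 genes of the upper rows rise and Cd40lg, Tcf7 and Bcl2 fall from conventional cells to Tregs in 8 of 8 libraries.

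The genes of tissue Tregs were next. Of 19 genes in a list of tissue and effector Tregs, 12 were tested, 7 rose and none fell, with a median log2 fold change of 0.71. Areg had the largest rise of all genes that passed the naming rule, 8.76-fold (log2 3.13 ± 0.32 SE, adjusted p = 3.03e-05). Its level in Tregs was 329, 474, 483 and 827 CPM in WT control, acute, chronic and allergy and 135, 362, 149.7 and 382 in App control, acute, chronic and allergy. In conventional cells it lay between 5.89 and 117. Every Treg sum was above every conventional sum. Klrg1, an inhibitory lectin-like receptor for cadherins, followed with 179, 165, 305 and 193 CPM in WT Tregs and 45.1, 68.9, 99.8 and 127 in App Tregs, against 8.34 to 32.4 in conventional cells (6.78-fold, log2 2.76 ± 0.29 SE, adjusted p = 3.27e-05), also without overlap.

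Gata3, the transcription factor of type 2 lymphocytes, averaged 193 ± 57.5 CPM in Tregs and 92.5 ± 14.2 in conventional cells (SD, n = 8, log2 fold change 0.99 ± 0.16 SE, adjusted p = 0.00146). Nfil3, a bZIP transcription factor, rose 2.42-fold, a call lost against all Foxp3-negative cells of the gate (log2 fold change 0.35, edgeR adjusted p = 0.443). Icos, a costimulatory receptor, Tigit, an inhibitory receptor, and Tnfrsf1b, the second TNF receptor, rose with log2 fold changes of 0.65, 0.68 and 1.03 and adjusted p values of 0.0225, 0.0245 and 0.0485, and each of these calls was lost in 7 or 8 of the alternative analyses. Batf, Ccr8, Rora, Maf and Cd69 did not pass, at log2 fold changes of 0.44 to 0.73. Il1rl1 was too low to test, at 59.6 ± 41.1 CPM in Tregs and 20.2 ± 10.7 in conventional cells (SD, n = 8). After each cell was thinned to 1000 UMIs, an Areg UMI was found in 15.9% of 302 Tregs (95% exact binomial interval 11.96 to 20.5) and 2.4% of 1320 conventional cells (1.7 to 3.4), and a Klrg1 UMI in 12.9% and 1.4%. Thinning left out 7 Tregs and 20 conventional cells. Without it the shares of Areg were 23.9% and 5.4%, beside 1.5% in CD8 T cells, 0.8% in B cells and 59.9% in ILC2s.

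The 250 bases upstream of the Areg start (RefSeq promoters, GRCm38.p6, chr5:91139349-91139598, plus strand) are shown because Areg had the largest rise. Capitals mark a cAMP response element, TGACGTCA, a palindrome, which lies in 1.55% of 32851 windows of this length.

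Areg: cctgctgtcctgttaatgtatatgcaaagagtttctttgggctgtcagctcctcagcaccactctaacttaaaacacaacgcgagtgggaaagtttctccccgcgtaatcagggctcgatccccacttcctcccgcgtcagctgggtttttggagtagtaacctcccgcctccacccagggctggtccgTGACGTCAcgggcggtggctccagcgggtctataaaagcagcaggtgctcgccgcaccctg

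Of the 24 genes named by rule, 19 had a promoter entry. TGACGTCA was found in the window of Areg only among them, the forkhead motif TGTTTAC (either strand) in that of Retnlg only, with 3.17% of all windows holding it, and the kappa-B motif (3 G, any 2 bases, 3 T and 2 C, either strand) in a window of Tnfrsf9 only, with 1.41%. That window precedes a RefSeq start that lies inside the GENCODE gene. The motifs were chosen after the genes were known, and a match is a description of the sequence.

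Areg differed sharply between hashtag groups. Hashtag groups fell into 14 with low and 16 with high levels of 10 immediate-early genes (Fos, Jun, Egr1 and others that respond quickly to stimulation), judged on Foxp3-negative T cells, with a gap of 1.62-fold between them. Areg had 0 UMIs in all 131 Tregs of the low groups, which allows a share of up to 2.29% of cells with a UMI (3 counts of 131, or 2.78% as the upper end of the exact binomial interval), and was found in 74 of 178 Tregs (41.6%, 95% exact binomial interval 34.2 to 49.2) of the high groups, in each of the 16. Conventional cells showed the same split, with 0 UMIs of Areg in the low groups and 75.6 CPM in the high groups. Klrg1 was detected in 10.7% of Tregs of the low groups and 27.0% of those of the high groups. Ikzf2 stood at 378.4 CPM in the Tregs of the low groups and 378.2 in those of the high groups. The labels do not say whether the hashtag groups were handled differently.

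**Figure D2:**
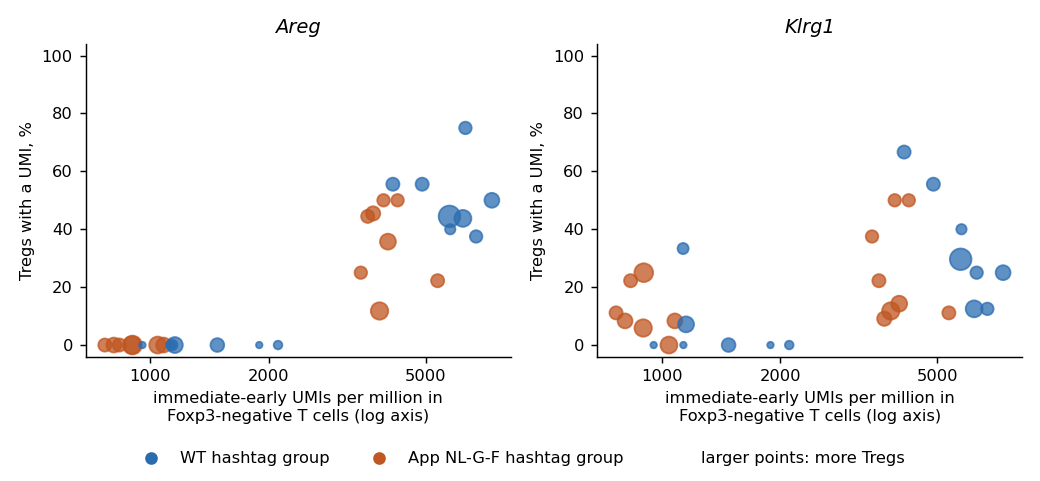
Share of Tregs with a UMI of Areg (left) or Klrg1 (right), in percent, for each of the 30 hashtag groups against the immediate-early level of Foxp3-negative T cells in that group (CPM, log axis). WT groups are blue and App NL-G-F groups orange, and larger points hold more Tregs. Areg is at 0 in all 14 groups on the left of the gap and above 0 in all 16 on the right, while Klrg1 is found on either side.

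Some immediate-early genes were higher in Tregs. Of 10 genes in the list, 9 were tested, 4 rose and none fell, with a median of 0.70. Nr4a1, an orphan nuclear receptor induced by T cell receptor signals, stood at 172, 520.2, 907 and 669 CPM in the Tregs of WT control, acute, chronic and allergy and at 180.3, 155, 328 and 228 in those of App control, acute, chronic and allergy. In conventional cells it averaged 87.4 ± 64.9 (SD, n = 8), and it was higher in Tregs in 8 of 8 libraries (4.31-fold, log2 2.11 ± 0.26 SE, adjusted p = 0.000147). Junb, Jun and Dusp1 rose with log2 fold changes of 0.80, 1.12 and 0.80, and their calls were lost in 3, 12 and 2 alternative analyses. Fos, Egr1, Ier2, Zfp36 and Btg2 lay between -0.04 and 0.70 and did not pass. Gadd45b, a stress-induced signalling gene, rose 3.32-fold. Gadd45b, which is not in the list that split the hashtag groups, stood at 30.7 CPM in the Tregs of the low groups and 467 in those of the high groups. Nr4a1 is in that list, so its 23.0 and 547 CPM partly restate the split. Within the high groups alone, Areg, Nr4a1 and Gadd45b remained higher in Tregs, with log2 fold changes of 2.96, 2.09 and 1.69.

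Most tested genes of a TNF receptor and NF-kB list rose. Of 12 in the list, 11 were tested, 8 rose and none fell, with a median of 0.95. Besides Tnfrsf4, Tnfrsf9, Tnfrsf18 and Tnfrsf1b, which also stand in the lists above, the adaptor Traf1, the subunits Rel and Nfkb1 and the inhibitor Nfkbia passed. The calls of Traf1, Rel and Nfkb1 were lost in 10, 3 and 7 alternative analyses. Rel, the subunit known to be needed for Treg development, averaged 109 ± 57.5 CPM in Tregs and 51.4 ± 26.9 in conventional cells (SD, n = 8, log2 fold change 0.99 ± 0.23 SE, adjusted p = 0.0204). Nfkbia, a direct NF-kB target, averaged 974 ± 294 and 494 ± 162, and within the low immediate-early groups its log2 fold change was 0.12 with an adjusted p of 0.873. Rela, Relb and Birc3 did not pass, at -0.06, 0.61 and 0.18.

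Of 13 suppressive mediators, 6 were tested and 2 rose. Ebi3, a subunit of interleukin-35 and interleukin-27, averaged 79.03 ± 23.6 CPM in Tregs and 26.3 ± 16.7 in conventional cells (SD, n = 8, log2 fold change 1.52 ± 0.24 SE, adjusted p = 0.00153). Fgl2, a fibrinogen-like secreted inhibitor, rose 1.71-fold, a call lost in 4 of 20 alternative analyses and turned to -0.16 against all Foxp3-negative cells. Tgfb1, Nt5e (CD73), Gzmb and Pdcd1 did not pass, at log2 fold changes of 0.05 to 0.65. Il10 was detected in 2.3% of Tregs, too few for a test, and Il12a, the partner of Ebi3 in interleukin-35, had 0 UMIs in the Tregs.

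Among the genes that fell in Tregs were 5 of the lists of conventional effector and resting T cells. Cd40lg, the helper signal to B cells, stood at 28.6, 33.8, 29.6 and 11.3 CPM in the Tregs of WT control, acute, chronic and allergy and at 25.8, 25.8, 35.7 and 53.0 in App control, acute, chronic and allergy. Conventional cells held 108 to 258, and the classes did not overlap (5.36-fold lower, log2 -2.42 ± 0.19 SE, adjusted p = 3.78e-06). Of 15 conventional effector genes, 6 were tested and 3 fell, these being Cd40lg, the chemokine receptor Cxcr6 (log2 -1.34 ± 0.22 SE) and the cytotoxic granule gene Nkg7 (-1.33 ± 0.19 SE), with a median of -0.93. The call of Nkg7 was lost with no replicate block. Il2, whose own expression Foxp3 is known to repress, had 7 UMIs in Tregs and 137 in conventional cells and was too low for the test.

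Of 12 genes of resting T cells, 9 were tested and 2 fell, with a median of -0.44. Tcf7, a transcription factor of naive and memory T cells, averaged 94.6 ± 46.2 CPM in Tregs and 285 ± 53.2 in conventional cells (SD, n = 8, log2 fold change -1.56 ± 0.22 SE, adjusted p = 0.00051), without overlap. Bcl2, a survival factor, averaged 82.5 ± 37.3 and 243 ± 74.6 (log2 -1.61 ± 0.14 SE, adjusted p = 5.83e-06). The interleukin-7 receptor Il7r did not pass, at -0.14 ± 0.10 SE. Bcl2 also stands in the list of interleukin-2 receptor signalling, where 10 of 11 genes were tested, Il2ra rose, Bcl2 fell and the other 8 lay between -0.43 and 0.59.

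The other large falls included Xcl1 (a chemokine for cross-presenting dendritic cells), Ehd3 (an endocytic protein), Themis (a T cell receptor signalling protein), Mfsd6, Tbc1d4, Pde7a (a cAMP phosphodiesterase), Gramd3 and Fasl (the death ligand), with log2 fold changes of -1.37 to -2.64, and Tent5a and Cd81 completed the rises with 1.35 and 1.32. Tbc1d4 and Cd81 lost their call in 2 alternative analyses each and Fasl in 1. Retnlg, a gene of neutrophils, had the largest fall, -2.99 ± 0.48 SE, which was lost in 2 of 12 alternative analyses (down to -1.11, adjusted p up to 0.671). It was at 0 UMIs in the Tregs of 4 libraries and reached 448 CPM in those of App acute, where conventional cells held 963, the highest level of either class.

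Among 19 genes of chemokine receptors and homing, 12 were tested, 4 fell and none rose. Cxcr6, Itgb1 (the integrin beta-1 chain), Cxcr3 and Itgal fell with log2 fold changes of -1.34, -0.89, -0.62 and -0.52. The calls of Cxcr3 and Itgal were each lost in 13 alternative analyses. That of Itgb1 was lost against all Foxp3-negative cells of the gate, where no Cd4 UMI was required (-0.18, edgeR adjusted p = 0.502). That of Cxcr6 was lost within the high immediate-early groups (edgeR adjusted p = 0.135). Ccr2, Ccr8, Cxcr4 and Itgb7 lay between 0.42 and 0.73 and did not pass. Gpr15, a homing receptor of colonic Tregs, was too low for the test, with 36 UMIs in 309 Tregs and 15 in 1340 conventional cells. Of the 8 genes listed for gut-type Tregs only Maf could be tested, at 0.44 ± 0.13 SE, and it did not pass.

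Proliferation and interferon genes are given beside the 4.34% of all genes tested that passed. With 8 genes tested in each list, their counts cannot be told apart from that share. Of 8 cell cycle genes tested, H2afz, a histone variant that is also expressed outside the cycle, rose with a log2 fold change of 0.74 ± 0.18 SE (adjusted p = 0.0274, lost in 6 alternative analyses), while Mki67 and Top2a stood at -0.07 ± 0.35 and 0.30 ± 0.35 SE. None of the 8 type I interferon genes tested passed, and their median was 0.03.

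**Figure D3:**
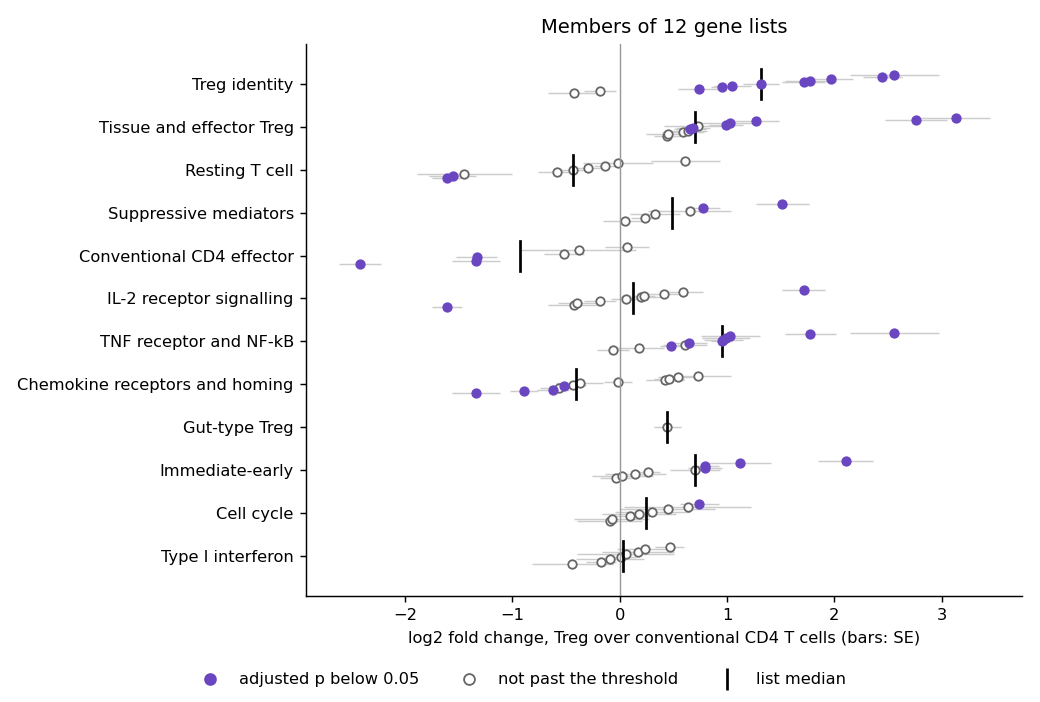
Log2 fold change of Tregs over conventional CD4 T cells (horizontal axis, bars are SE) for the tested members of 12 gene lists, 1 list per row. Filled points have an adjusted p below 0.05 and black ticks are list medians. Treg identity, tissue Treg, TNF receptor and NF-kB and immediate-early members that pass lie to the right, and resting, conventional effector and homing members that pass lie to the left.

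Beside other lymphocytes the Tregs held a mixed profile. In ILC2s of the same libraries, the innate source of amphiregulin in many tissues, Areg averaged 872 ± 225 CPM (SD, n = 8), above the 393 ± 218 of Tregs in 8 of 8 libraries. Il1rl1 (371 ± 116 against 59.6 ± 41.1) and Gata3 (718 ± 307 against 193 ± 57.5) were also higher in ILC2s in 8 of 8 libraries. Klrg1 overlapped, at 108 ± 31.5 in ILC2s and 148 ± 82.5 in Tregs, with Tregs higher in 4 of 8 libraries. Ikzf2, Ctla4 and Tnfrsf4 were higher in Tregs than in ILC2s in 8 of 8 libraries, at 365 ± 74.9, 412 ± 161 and 660.2 ± 213 against 45.8 ± 19.3, 7.45 ± 21.1 and 6.87 ± 12.4. Il2ra ran the other way, at 139 ± 41.4 in Tregs and 536 ± 289 in ILC2s, higher in ILC2s in 8 of 8 libraries, and Tnfrsf18 stood at 461 ± 87.2 and 560.3 ± 310, with Tregs higher in 6 of 8. Against CD8 T cells, Tregs held more Areg, Klrg1, Gata3, Ikzf2, Il2ra, Ctla4 and Tnfrsf4 in 8 of 8 libraries. ILC2s were picked for Il5 or Il13, so those 2 genes were not compared. ILC2s without a UMI of either were left out, so the levels describe only ILC2s with one. Their median depth was 3217 UMIs against 2592 in Tregs.

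The Tregs differed among themselves. Of the 62 Tregs with a Klrg1 UMI, 51.6% also held Areg, 58.1% Gata3 and 29.0% Il1rl1, and of the 247 without one 17.0%, 32.8% and 11.7% did. Their median depths were 2941.5 and 2510 UMIs. As 48 of the 62 came from high immediate-early groups, where all Areg was found, Areg is better compared there, at 32 of 48 against 42 of 130 cells. Tcf7 was found in 9.68% of the cells with Klrg1 and 23.9% of those without. Ccr7, which marks recirculating cells, was found in 23 Tregs. Such shares describe single cells of 8 libraries and were not tested.

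Whether the share of Tregs among CD4 T cells changed with colitis, food allergy or genotype was asked next. The share is a ratio of 2 gates of unequal strictness, since conventional cells needed a Cd4 UMI and Tregs did not. It also depends on the detection of Foxp3, as a Treg whose Foxp3 was missed could be counted as a conventional cell. Of the 309 Tregs, 164 held 1 Foxp3 UMI, and 15.8% of conventional cells held Ikzf2. Foxp3 CPM was also lower in App than in WT Tregs within each treatment. How many Tregs were missed in either genotype was not tested. Over hashtag groups of at least 20 CD4 T cells it was 15.4 ± 2.43% in WT control (SD, n = 4), 21.0 ± 6.64% in WT acute (n = 2), 27.9 ± 8.64% in WT chronic (n = 3) and 17.6 ± 8.42% in WT allergy (n = 2). In App mice it was 21.4 ± 9.19% in control (n = 4), 21.6 ± 3.46% in acute (n = 3), 19.1 ± 8.77% in chronic (n = 4) and 20.2 ± 4.50% in allergy (n = 4). For App chronic colitis the study describes fewer mice than the hashtag groups found here, so some groups may share an animal, and p-values over groups may then be too small. The hashtag groups overlapped in every comparison. They did so least for chronic and control WT mice, where 1 of the 3 chronic groups, at 18.2%, lay below the highest control group, at 18.4%.

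None of 7 comparisons passed an exact two-sided permutation test over hashtag groups (adjusted p = 0.622 to 0.971). The largest difference, WT chronic over WT control, was 12.5 points (exact permutation p = 0.114, where 0.0571 is the smallest possible with 3 and 4 groups). With all cells of the T cell gate as denominator it was 0.663 points. From the summed cells of each library it was 12.2 points, with a 95% interval of 1.97 to 23.5 that covers counting error only. With 2 and 4 groups the smallest possible p was 0.133, and with 4 and 4 it was 0.0286. App against WT within treatments differed by 0.07 points (permutation p = 0.979, 100000 resamples, 15 App and 11 WT groups). When only cells with 2 or more Foxp3 UMIs were counted as Tregs, the difference was -6.16 points.

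**Figure D4:**
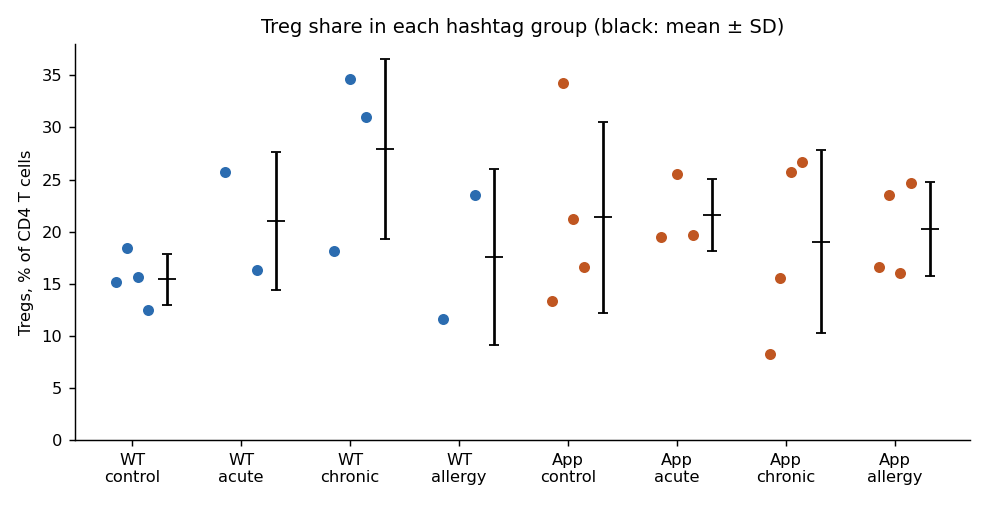
Tregs as a percentage of CD4 T cells (Tregs plus conventional cells, vertical axis from 0) in each hashtag group of at least 20 such cells, by condition. Points are hashtag groups and black bars their mean ± SD. The 3 WT chronic groups lie between 18.2 and 34.6%, the 4 WT control groups between 12.5 and 18.4%, and the remaining conditions overlap.

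Foxp3 chose the cells, so its values by genotype are a description of cells cut at 1 UMI, and no test is drawn on for them. In WT mice 27 of 40, 33 of 47, 18 of 25 and 9 of 18 Tregs held 2 or more Foxp3 UMIs in control, acute, chronic and allergy, and in App mice 16 of 51, 8 of 31, 19 of 43 and 15 of 54 did. In all, these were 66.9% of 130 WT and 32.4% of 179 App Tregs, with median depths of 2692 and 2470 UMIs. Over hashtag groups of at least 5 Tregs the share averaged 65.7 ± 15.5% in WT (SD, n = 11, 40.0 to 85.7%) and 32.8 ± 13.4% in App (SD, n = 15, 11.1 to 55.6%), so the genotypes overlapped at their edges. Foxp3 stood at 680.4, 643, 631 and 442 CPM in WT Tregs and at 477, 353, 521 and 424 in App Tregs, lower in App in 4 of 4 treatments. In CD8 T cells the share with a Foxp3 UMI was 1.12% of 1248 cells in WT (0.615 to 1.88) and 0.815% of 2699 in App (0.512 to 1.23).

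The effect of genotype on Treg expression was tested over the 4 WT and 4 App libraries with treatment as a block. No gene of 2186 passed, with edgeR or with DESeq2, and 127 genes (5.81%) had an unadjusted p below 0.05 with edgeR and 46 with DESeq2. The genes of the gate were not removed from this test or from those of the treatments. As Foxp3 chose the cells, nothing is drawn from its test. The values that follow did not pass. Klrg1 averaged 211 ± 64.3 CPM in WT and 85.3 ± 35.9 in App Tregs (SD, n = 4 libraries, log2 difference -1.28 ± 0.27 SE, adjusted p = 0.491). The libraries did not overlap, as in 110 of the 2186 genes, 5.03%. Tnfrsf4 averaged 807 ± 196 and 513 ± 101 (-0.60 ± 0.19 SE, adjusted p = 0.741), likewise without overlap. Areg averaged 528 ± 211 and 257 ± 133 (-1.04 ± 0.26 SE, adjusted p = 0.522) and was lower in App within each treatment. Cxcr6 averaged 84.0 ± 18.0 and 205 ± 64.2 (1.28 ± 0.27 SE, adjusted p = 0.491) and Itgb1 195 ± 53.2 and 367 ± 43.7 (0.97 ± 0.24 SE, adjusted p = 0.522), the App libraries being the higher ones without overlap. Ikzf2, at 352 ± 74.96 and 378 ± 83.9, differed by 0.14 ± 0.26 SE.

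By list, 1 of 9 tested TNF receptor and NF-kB genes was higher in App Tregs, with a median log2 difference of -0.45 against 0.01 over all genes, and 0 of 9 immediate-early genes, with a median of -0.28. In each genotype 7 of 15 hashtag groups were low in immediate-early genes, but these held 36 of 130 WT Tregs (27.7%) and 95 of 179 App Tregs (53.1%), with 1 to 14 Tregs in a WT group and 9 to 20 in an App group. Within the high groups Areg stood at 623 CPM in WT Tregs and 479.8 in App Tregs, Klrg1 at 207 and 89.2, and Cxcr6 at 89.0 and 243. Within the low groups Cxcr6 stood at 68.9 and 160.0. Klrg1 stood at 164 and 87.3 there, but was detected in 8.33% of 36 WT and 11.6% of 95 App Tregs, so its level and its share of cells ran in opposite directions. Foxp3 stood at 861 and 505 CPM in the low groups of WT and App and at 556 and 397 in the high groups. Areg was at 0 in the low groups of both genotypes. In conventional cells Cxcr6 stood at 272 and 294 CPM in the high groups of WT and App, Klrg1 at 21.3 and 27.6 and Areg at 76.2 and 74.7. Nr4a1 stood at 181 and 74.7 there, Junb at 1993 and 1474 and Gadd45b at 157 and 116. The summed immediate-early list stood at 6388 and 4494 CPM in these conventional cells and at 8015 and 7754 in Tregs of the high groups. The high groups were thus not matched between genotypes for this level. A test of whether the Treg to conventional difference itself depended on genotype, chosen after these values were seen, passed for no gene of 3710 (edgeR, 222 with an unadjusted p below 0.05, Klrg1 adjusted p = 0.502). Each genotype was sampled in its own libraries, so genotype and library cannot be told apart within a treatment.

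**Figure D5:**
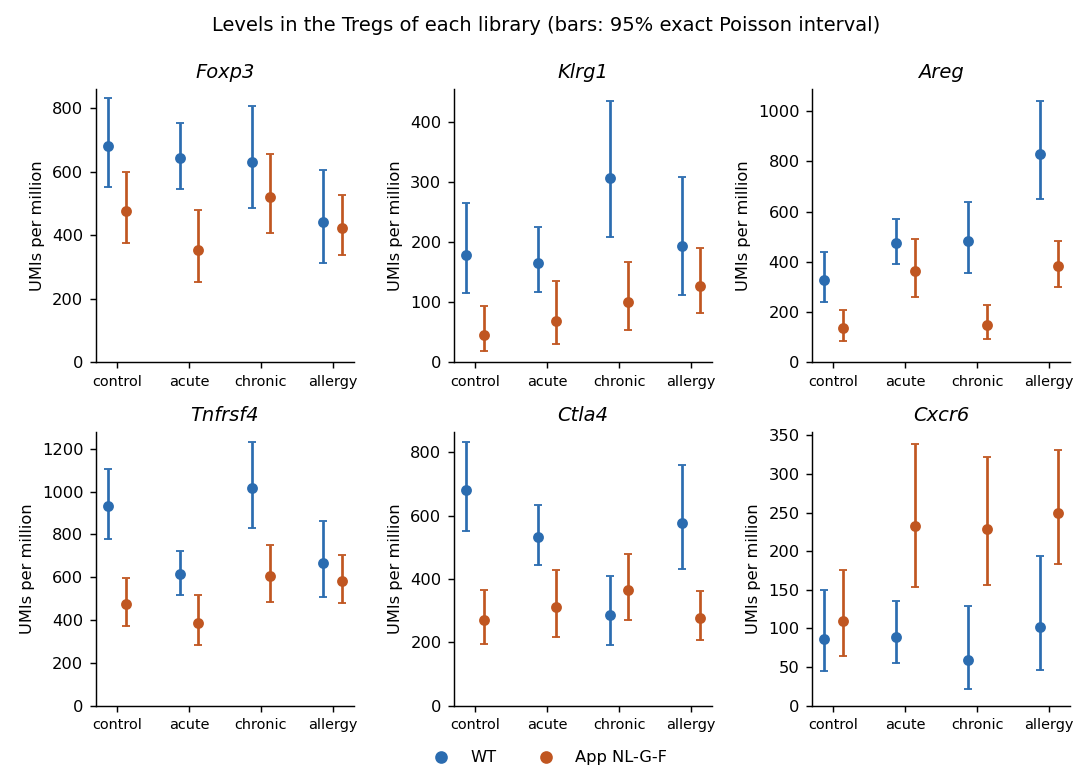
CPM (vertical axes from 0) of 6 genes in the Tregs of each library, by treatment, with 95% exact Poisson intervals for counting error. WT libraries are blue and App NL-G-F libraries orange. Foxp3, Klrg1, Areg and Tnfrsf4 are lower and Cxcr6 is higher in App in 4 of 4 treatments, and Ctla4 is lower in 3 of 4, while no gene passed the adjusted test. Foxp3 chose the cells, so its values are a description.

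The treatments gave no gene past the threshold in Tregs either. With 2 libraries per treatment, acute colitis, chronic colitis and food allergy against control each had 0 of 2186 genes called by edgeR and by DESeq2. Genes with an unadjusted p below 0.05 numbered 76, 58 and 49 with edgeR (3.48%, 2.65% and 2.24%) and 11, 13 and 16 with DESeq2. Areg was 1.07 ± 0.36, 0.49 ± 0.37 and 1.44 ± 0.36 SE above control on the log2 scale in acute colitis, chronic colitis and food allergy (edgeR adjusted p = 0.992, 0.980 and 0.99997). Nr4a1 was 0.78 ± 0.48, 1.64 ± 0.47 and 1.11 ± 0.48 SE above control, and Klrg1 0.25 ± 0.39, 0.99 ± 0.38 and 0.78 ± 0.39 SE. Of 9 immediate-early genes, 8 were higher than control in each of the treatments, with medians of 0.70, 0.50 and 0.43 against medians near 0 over all genes. The mix of low and high immediate-early hashtag groups also differed by treatment. Tregs in low against high groups numbered 10 and 14 against 8 and 8 in WT control. In App control they numbered 16 and 12 against 14 and 9. In acute colitis they numbered 1 and 3 against 27 and 16 (WT) and 12 against 8 and 11 (App). In chronic colitis they numbered 1 and 6 against 9 and 9 (WT) and 9 and 17 against 9 and 8 (App). In food allergy they numbered 1 against 5 and 12 (WT) and 9 and 20 against 17 and 8 (App). The part of this mix in the differences was not tested. All 3 contrasts share the 2 control libraries. Ctla4, Ikzf2 and Tnfrsf4 lay between -0.34 and 0.34 in the 3 contrasts, with SE of 0.26 to 0.37. Each library contributed 18 to 54 Tregs to these values.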

How the data were processed

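Brain immune cells were isolated after perfusion, enriched on Percoll, sorted for CD45.2 and run on a droplet 5′ platform with hashtag antibodies. An intravenous CD45 label was given, and whether labelled cells were left out is not given in the sources used here. The authors made UMI counts per gene and barcode with Cell Ranger 6.1.2 on mm10 (submitters' processing notes), and the deposited counts were not normalised.

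Barcodes needed at least 500 UMIs, at least 200 genes, at most 5% mitochondrial UMIs, and a top hashtag of at least 50 UMIs and at least 3 times the second. No doublet caller was run. The hashtag, Cd8b1 and Cd79a conditions remove some mixed barcodes, and how many were left was not tested. This kept 4479 to 6747 barcodes per library, with median depths of 2647 to 3968 UMIs. Levels are CPM of the UMIs of a class summed in a library. Intervals and limits from a count of 0 cover counting error only.

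Summed counts were tested with edgeR 4.0.16 (quasi-likelihood, Benjamini-Hochberg adjustment, R 4.3.3) and, as an alternative, DESeq2 1.42.0. Tregs and conventional cells came from the same library, so the library was the block. Condition contrasts used treatment and genotype over 8 libraries. SE is the log2 fold change over the square root of F, an approximation. Shares were tested by permutation over hashtag groups (scipy 1.17.1), so p-values measure the spread between these groups. Gene models were GENCODE, matched for 32158 of 32285 identifiers. The genes named were the members of 12 lists and, among called genes with at least 100 UMIs and 1 sign in all 8 libraries, the 12 largest rises and 12 largest falls, without gate, receptor, immunoglobulin, ribosomal and mitochondrial genes. Members and lists were chosen with earlier results of these data known. The tests were tried on simulated data. Alternatives changed the filter, block, classes, depth, immediate-early state and libraries. Some genes of the lists are not reported here.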

Additional observations from a re-analysis of the deposited data

Results flagged for a closer look

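A Foxp3 UMI was found in 0.912% of CD8 T cells, outside the cells of the tests between Tregs and conventional cells, against 0.282% of B cells, whose 95% exact binomial interval ends at 0.394%. This signal in cells left out of those tests is what drew attention. The median depths were 3085 and 2525 UMIs. Their part in the result was not tested.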

How the results depend on the processing

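The Treg against conventional comparison called 161 genes. It called 397 with no low-count filter, 560 against all Foxp3-negative cells of the gate, 94 with the hashtag group as block, 80 with Cd4 required of Tregs, 60 after thinning to 1000 UMIs, 34 in the low and 54 in the high immediate-early groups. Leaving out each library gave 94 to 160, with 94 without WT acute and 107 without App chronic. With no replicate block it called 112 (70 higher, 42 lower). For the 47 genes followed, 743 values kept call and direction, 121 (24 genes) lost the call and 1 turned, Fgl2 at -0.16 against all Foxp3-negative cells. The causes were not tested.

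App against WT (0 called) gave 52 with no filter, 14 among cells of 1500 to 5000 UMIs (all lower in App, Nr4a1, Areg and Tnfrsf4 among them), 4 after thinning, 4 without cells holding other-lineage UMIs and 0 on leaving out any library. With no filter, acute colitis gave 43, chronic colitis 18 and food allergy 28. Markers of other cell types were among these calls and among the 52. Mcpt8, a mast cell or basophil marker, was found in 2 Tregs. Its log2 fold changes were -8.63, -2.93 and -7.67 in this order and -7.40 in App against WT. The neutrophil marker S100a8 stood at 7.63 in acute colitis and 3.28 in App against WT. Gadd45b (acute colitis, food allergy) and Nr4a1 (chronic colitis) were also called. The part of carried-over RNA in these counts was not tested. Chronic colitis gave 1 (Nr4a1, higher) with 2 or more Foxp3 UMIs, with 1500 to 5000 UMIs and without other-lineage UMIs, and food allergy gave 1 (Areg, higher) with 1500 to 5000 UMIs. Leaving out libraries gave 0 to 8, 0 to 2 and 0 to 1. Without App control, 1 control library remained, and H2-Eb1 had log2 fold changes of 7.22, 6.86 and 6.06 in the same order. Without WT control, H2-Eb1 stood at -3.12 in food allergy. In the high immediate-early groups alone, chosen after seeing the data, 0 of 1205 genes were called in each contrast.

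Share differences, in points, changed sign as follows. WT allergy was -1.87 with groups of at least 5 cells, -1.46 over all gate cells, -0.321 over all kept cells and -1.87 with 2 or more Foxp3 UMIs. App acute was -1.43, -0.228 and -1.70 under the last 3, and -4.14 in the low groups. App chronic was 0.0709 over all kept cells, 1.72 with 2 or more Foxp3 UMIs, 2.82 with Cd4 required and 7.25 in the high groups. App allergy was 2.07 with at least 50 cells, 0.0674 over all kept cells, 1.23 from library shares and 1.16 in the high groups. App control against WT control was -2.78 with 2 or more Foxp3 UMIs. App against WT within treatments was -0.676 and -1.37 with at least 5 and 50 cells, -0.386 over all kept cells, -0.878 with Cd4 required, -1.62 from library shares and -6.16 with 2 or more Foxp3 UMIs, a count that rests on the gene of the rule. Leaving out each hashtag group gave -2.47 to 4.52 for App acute, -5.00 to 1.99 for App chronic, -3.82 to 3.17 for App allergy, 0.887 to 10.3 for WT acute, 9.17 to 17.4 for WT chronic, -3.81 to 8.09 for WT allergy, 1.63 to 8.62 for the controls and -1.42 to 1.56 for App against WT. No paired analysis was possible because the labels give no replicate numbers shared between conditions, which concerns the shares of hashtag groups (Tregs and conventional cells were blocked by library). Between 18 and 54 Tregs per library limit what these counts can show.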
